A study of Homo sapiens with 4 samples.

Results

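Genes of ribosome biogenesis and of RNA polymerase I were followed in SUIT2 cells, a human cancer cell line, exposed to the agent fb-PMT. The members were 56 genes chosen by symbol from knowledge of the pathway, with earlier results of these data known. Of these, 48 had a transcript cluster (a probe set that summarises one locus) under their symbol on the array. The array held 21448 transcript clusters in all, of which 17709 carry 1 gene symbol. Each of the 48 had 1 transcript cluster. The other 8 (NOP56, DKC1, WDR43, BOP1, GNL3, DDX18, EBNA1BP2 and PPAN) had none under their symbol and were not analysed here.

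The study compared 2 arrays of SUIT2 cells treated with fb-PMT at 30 µM for 24 h with 2 arrays of SUIT2 cells titled untreated. Their control condition was phosphate-buffered saline (PBS) for the same time. The labels name no genetic modification of the cells, and a single dose and time were tested. They do not say whether the 2 arrays of a group came from separate cultures, so the spread behind each p-value may be technical. fb-PMT is a thyroid hormone analog linked to a polymer and aimed at the hormone receptor site on integrin αvβ3, and the stated question was how it affects transcription of genes for mitochondrial function.

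The labels call the cells glioblastoma, whereas SUIT2 is known as a line from a pancreatic ductal adenocarcinoma. The keratin genes KRT8, KRT18 and KRT19 and the epithelial adhesion gene EPCAM lay above the 95th percentile of the array's negative control probe sets on all 4 arrays, while CDH1 and MUC1, the other 2 epithelial markers examined, lay below it on all 4. All 6 glial markers examined, GFAP and OLIG2 among them, lay below it on every array, as did 17 of the 19 markers of glial, fibroblast, immune and endothelial cells. COL1A2 and CD68 were the exceptions. Array medians over all transcript clusters were 6.27 to 6.28 on the log2 scale, and replicate arrays correlated with r = 0.996 for fb-PMT and 0.995 for the control, against 0.992 to 0.994 between groups.

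Ribosomes are built in the nucleolus. RNA polymerase I transcribes a long precursor RNA there, small nucleolar ribonucleoprotein particles (snoRNPs) guide its chemical modification and cleavage, and a succession of assembly factors folds and trims the precursors of the small and the large subunit before they leave for the cytoplasm. In tumour cells many of these factors are known targets of the transcription factor MYC and track cell growth. The values below are log2 values made by robust multi-array averaging (RMA), relative to the other transcripts on the same array. They cannot tell fewer cells with a transcript from less transcript per cell, and they do not measure ribosomal RNA or the RNA content of a cell.

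Members were mostly lower in fb-PMT cells, by small amounts. Of the 48 measured members, 41 had a negative log2 difference (fb-PMT minus control), a share of 85.4% against 52.7% of all transcript clusters and 48.1% of the 9199 clusters above the negative controls in a group. The median difference was -0.25, the middle 50% of members lay between -0.39 and -0.04, and the range ran from -0.75 for PNO1 to 0.30 for RRN3. The median over all transcript clusters was -0.02.

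No member passed the test in either direction. In limma's moderated test with Benjamini-Hochberg adjustment over all transcript clusters, 0 of the 48 were lower and 0 higher at an adjusted p under 0.05, beside 0% of all transcript clusters lower and 0.0979% higher. The smallest fold among the 21 clusters that passed was 3.05, above that of any member. At an unadjusted p under 0.05, 11 members were lower (22.9%, against 5.49% of all transcript clusters and 4.23% of those above the negative controls in a group) and 0 were higher (against 5.7%). When limma's variance was allowed to follow the intensity, 2 members were lower past the adjusted threshold, NCL and WDR74 (against 0.513% of all transcript clusters), and 0 were higher (against 1.37%).

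On both fb-PMT arrays 28 members lay below both control arrays (58.3%, against 22.3% of all transcript clusters and 22.8% of those above the negative controls in a group), and 1 member, RRN3, lay above both (2.08%, against 20.2%). When each fb-PMT array was set against each control array (4 pairs), 34 to 44 of the 48 members were lower in the fb-PMT array, with medians from -0.26 to -0.19. Between replicates of one group, fb-PMT array 1 was below array 2 for 29 members (median -0.07) and control array 1 was below array 2 for 30 members (median -0.04). The members share arrays and vary together, so these counts are a description of 4 arrays and not of 48 independent measurements.

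**Figure D1:**
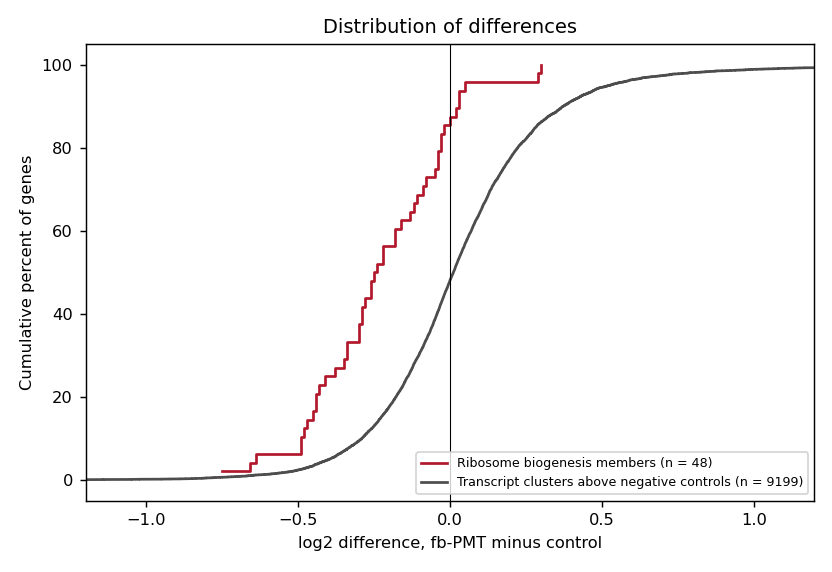
Cumulative percent of genes (vertical axis) by log2 difference, fb-PMT minus control (horizontal axis, cut at -1.2 and 1.2), for the 48 measured ribosome biogenesis members and for the 9199 transcript clusters above the negative controls in a group. The members' curve lies to the left, with a median of -0.25 against 0.01.

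Expression was well above the array's background for nearly all members. The 95th percentile of the negative controls was 7.15 and 7.29 on the fb-PMT arrays and 7.38 and 7.22 on the control arrays, and 45 of the 48 members exceeded it on all 4 arrays. RRP12 was below it on every array, so its values carry no fold. POLR1B exceeded it on 1 array of each group, and NOP2 on both fb-PMT arrays and 1 control array.

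**Figure D2:**
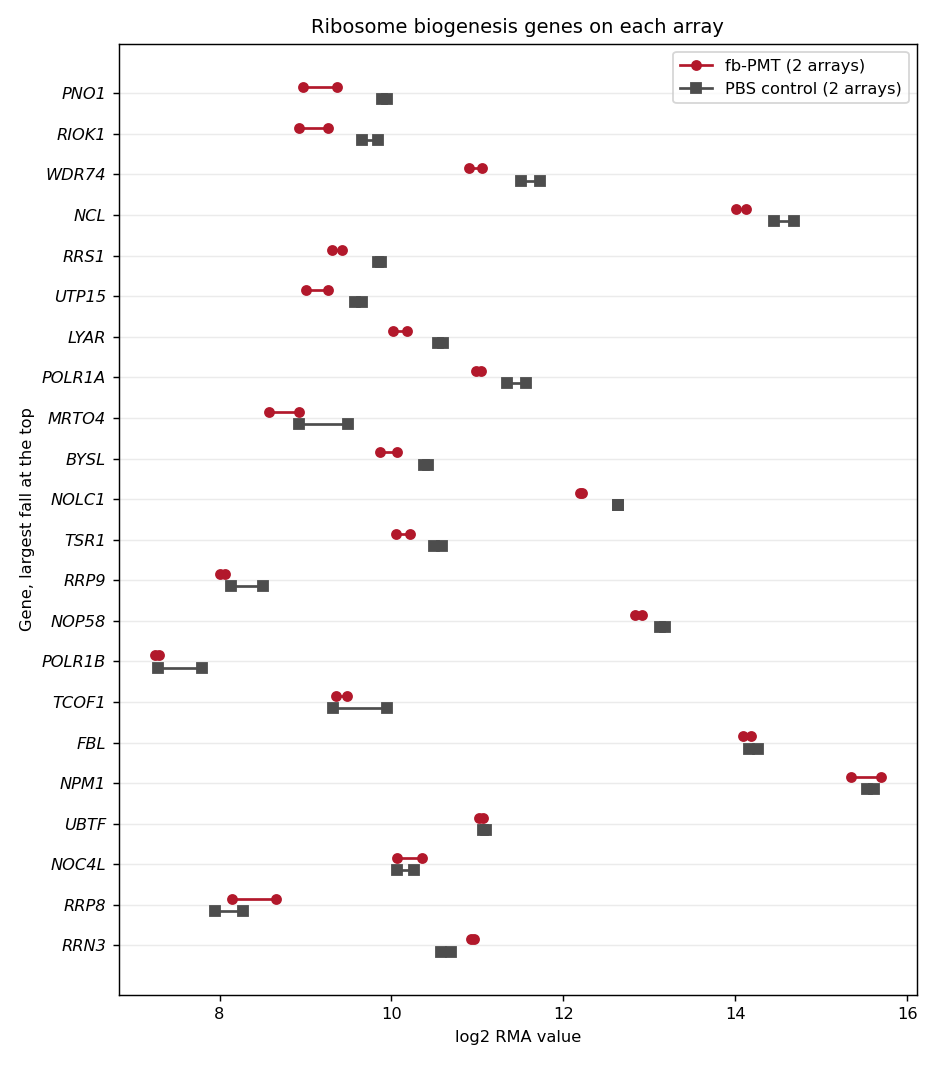
log2 RMA values (horizontal axis) on each array for the 22 members described in full (vertical axis, ordered by difference), with fb-PMT arrays as circles above and PBS control arrays as squares below. The symbols of PNO1, RIOK1, WDR74 and NCL do not overlap between groups, while those of TCOF1, NPM1 and NOC4L do.

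The members with the lowest differences are spread over the pathway: PNO1 and RIOK1 act on the small subunit, WDR74 on the large subunit, and NCL encodes nucleolin, an abundant nucleolar RNA-binding protein. The 250 bases before the annotated start of these 4 genes are shown, 5′ to 3′ on the gene's strand, from RefSeq on GRCh38.p14. Capitals mark 2 motifs searched on both strands, the E-box CACGTG, to which MYC and MAX can bind, and the core CCGGAAG bound by ETS family factors. The motifs do not overlap each other in these windows. PNO1 lies at chr2:68157638-68157887 on the plus strand, RIOK1 at chr6:7389558-7389807 on the plus strand, WDR74 at chr11:62839591-62839840 on the minus strand (the table's first of 2 windows for this gene), and NCL at chr2:231464485-231464734 on the minus strand.
PNO1: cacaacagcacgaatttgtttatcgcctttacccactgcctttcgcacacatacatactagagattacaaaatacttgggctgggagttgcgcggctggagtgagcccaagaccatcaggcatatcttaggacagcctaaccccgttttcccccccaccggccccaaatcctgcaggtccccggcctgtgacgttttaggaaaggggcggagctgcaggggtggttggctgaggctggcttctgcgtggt
RIOK1: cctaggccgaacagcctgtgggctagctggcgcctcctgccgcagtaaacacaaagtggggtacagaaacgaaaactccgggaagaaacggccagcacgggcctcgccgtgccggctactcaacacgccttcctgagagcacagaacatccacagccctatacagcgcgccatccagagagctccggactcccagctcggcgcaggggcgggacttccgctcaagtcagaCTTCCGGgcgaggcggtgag
WDR74: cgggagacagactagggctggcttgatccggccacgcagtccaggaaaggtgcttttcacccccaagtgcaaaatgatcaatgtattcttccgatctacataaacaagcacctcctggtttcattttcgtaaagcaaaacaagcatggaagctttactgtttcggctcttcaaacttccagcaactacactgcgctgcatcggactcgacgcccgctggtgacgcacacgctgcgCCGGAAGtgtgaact
NCL: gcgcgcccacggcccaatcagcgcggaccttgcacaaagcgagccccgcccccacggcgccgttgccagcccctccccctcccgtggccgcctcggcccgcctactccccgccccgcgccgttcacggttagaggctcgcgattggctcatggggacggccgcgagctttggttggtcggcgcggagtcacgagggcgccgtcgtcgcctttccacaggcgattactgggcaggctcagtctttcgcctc

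PNO1 has its E-box just after the start, beginning at base 10 on the gene's strand. Its site is shown with its neighbouring bases, at chr2:68157888-68157917 on the plus strand.
PNO1 E-box site: gcagctgcgCACGTGtttcagccggcagcg
The ETS core of WDR74 begins 15 bases before the start (position -15), and that of RIOK1 at position -20, with another at base 4 after the start. NCL holds neither motif in its window.

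Over the full window of 250 bases before to 50 after the start, 49 of the 56 listed genes had at least 1 window in the table. The table held 35116 windows for 27305 genes, and a gene counted as holding a motif when any of its windows held it. The E-box was found in 21 of the 49 genes (42.9%), against 10.9% of 15843 protein-coding genes and 8.77% of all 27305 genes with a window. The ETS core was also found in 21 (42.9%), against 16.5% of protein-coding genes. Among measured members with a window, the median log2 difference was -0.19 for the 18 with an E-box and -0.25 for the 25 without, and -0.26 for the 19 with an ETS core and -0.16 for the 24 without. These are matches of letters and not evidence of binding.

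Among the 6 genes of RNA polymerase I, 5 were lower (against 52.7% of all transcript clusters) and 1 was higher. Their median log2 difference was -0.20. POLR1A encodes the largest subunit of the enzyme. It had log2 values of 11.04 and 10.98 on the fb-PMT arrays, against 11.34 and 11.57 on the control arrays, a 1.36-fold lower level (log2 difference -0.45, SE 0.16, adjusted p = 0.412 by limma). The groups did not overlap. POLR1C, a subunit shared with RNA polymerase III, was lower on both fb-PMT arrays as well (difference -0.18, adjusted p = 0.682).

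POLR1B, the second-largest subunit, had values near the negative controls, 7.29 and 7.25 with fb-PMT against 7.28 and 7.80 in the control. Its groups overlapped, and the difference of -0.26 became -0.01 without control array 2 and -0.52 without control array 1. TCOF1, which encodes the treacle protein that ties RNA polymerase I transcription to precursor processing, had 9.35 and 9.48 with fb-PMT, against 9.32 and 9.95 in the control. There too the second control array alone stood high, and without it the difference of -0.22 turned to 0.09.

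UBTF binds the ribosomal gene promoter and keeps ribosomal genes open. Its log2 values were 11.07 and 11.02 with fb-PMT, against 11.10 and 11.07 in the control, with a 95% interval of the difference from -0.40 to 0.32. RRN3 encodes the initiation factor (TIF-IA) that brings RNA polymerase I to the promoter and responds to growth signals. It was the member with the highest difference, 10.96 and 10.92 with fb-PMT against 10.58 and 10.69 in the control (1.23-fold higher, SE 0.15, adjusted p = 0.521). Both fb-PMT arrays exceeded both control arrays. RefSeq lists pseudogenes of RRN3 (RRN3P1 and RRN3P2), whose transcripts could share probes, so its value is uncertain. The median of the 6 genes was -0.35 without control array 1 and -0.03 without control array 2.

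**Figure D3:**
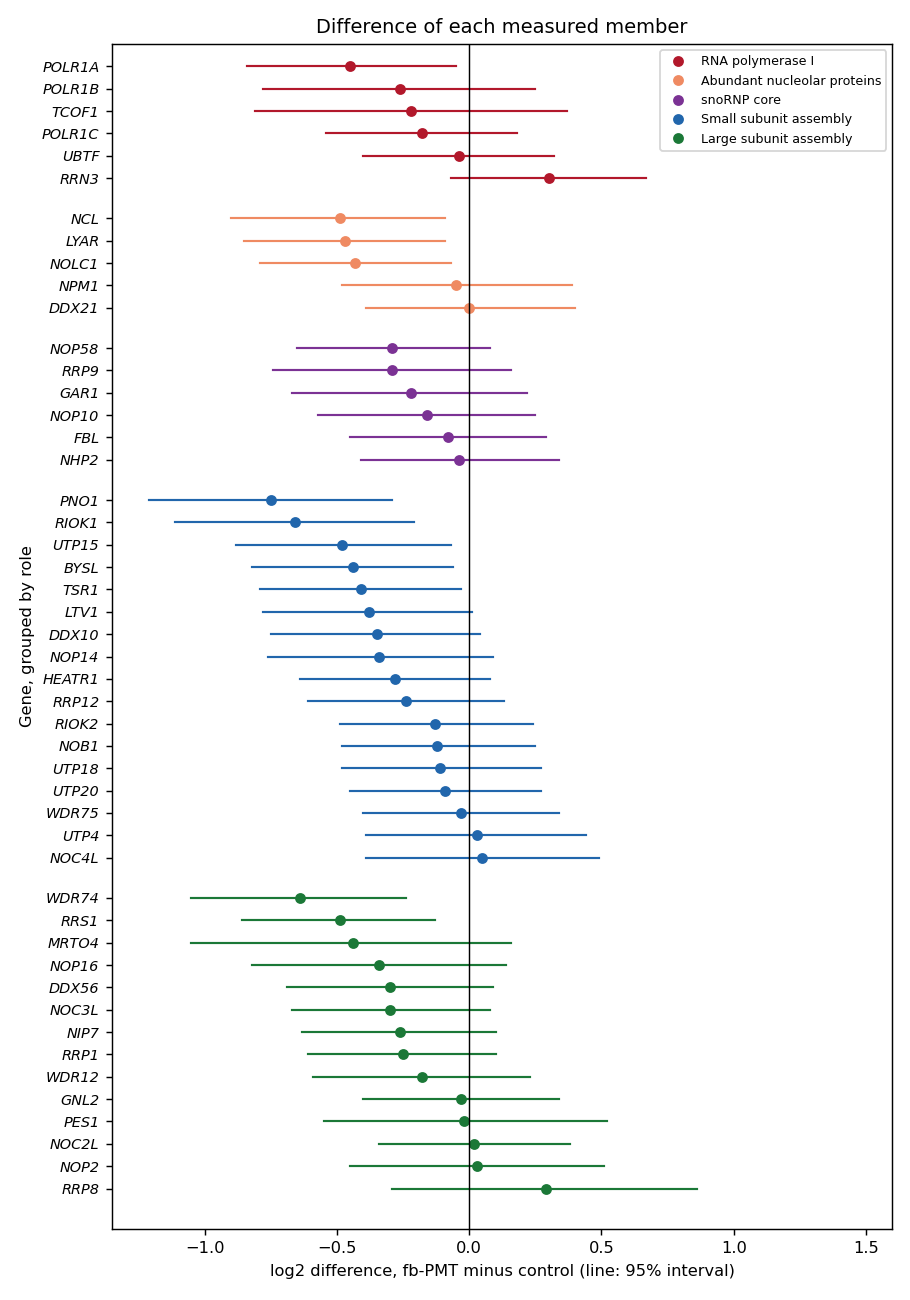
log2 difference, fb-PMT minus control (horizontal axis; point: estimate, line: 95% interval from limma), for each of the 48 measured members (vertical axis), grouped and coloured by role. Most points lie left of 0, from -0.75 for PNO1 to 0.30 for RRN3, and the intervals of 11 members exclude 0. These are the members with an unadjusted p under 0.05 by limma. At that level 5.49% of all transcript clusters were lower and 5.7% higher.

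Of the 5 abundant nucleolar proteins, 3 were lower on both fb-PMT arrays (against 22.3% of all transcript clusters) and the other two were close to the control. NCL had 14.13 and 14.01 with fb-PMT, against 14.45 and 14.68 in the control (1.41-fold lower, difference -0.49, SE 0.16, adjusted p = 0.39). It was 1 of the 2 members called lower when limma's variance followed intensity (adjusted p = 0.0298). NOLC1, also called Nopp140, which chaperones snoRNPs, had 12.22 and 12.19 with fb-PMT, against 12.63 and 12.64 in the control. That is a 1.35-fold lower level (difference -0.43, SE 0.14, adjusted p = 0.392), and each group's arrays lay close together.

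LYAR, a nucleolar zinc finger protein, had 10.02 and 10.18 with fb-PMT, against 10.60 and 10.54 in the control (1.38-fold lower, adjusted p = 0.382). NPM1, the chaperone nucleophosmin, had 15.35 and 15.69 with fb-PMT, against 15.53 and 15.61 in the control. Its fb-PMT arrays lay on either side of the control arrays, the interval of its difference was -0.48 to 0.39, and it has processed pseudogenes that could share probes. DDX21, an RNA helicase that acts in RNA polymerase I transcription and processing, had a difference of 0.00 (interval -0.39 to 0.40). The median over these 5 genes was -0.43.

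The snoRNP core genes were the group with the narrowest range, from -0.29 to -0.04. All 6 measured were lower, against 52.7% of all transcript clusters. Of the 6, 0 had an unadjusted p under 0.05 by limma, against 5.49% of all transcript clusters lower and 5.7% higher. With 6 genes, a count of 0 is near that share. The groups did not overlap for 2 of the 6, NOP58 and RRP9, against 22.3% of all transcript clusters. NOP58, a core protein of the box C/D particles that guide ribose methylation, had 12.91 and 12.83 with fb-PMT, against 13.18 and 13.13 in the control (1.22-fold lower, adjusted p = 0.538). Its fb-PMT arrays were both below its control arrays. RRP9, which belongs to the U3 particle needed for the first cleavages, had 8.0 and 8.06 with fb-PMT, against 8.50 and 8.13 in the control. Without control array 1 its difference of -0.29 was -0.10.

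FBL encodes fibrillarin, the methyltransferase of the box C/D particles. It had 14.09 and 14.18 with fb-PMT, against 14.16 and 14.27 in the control, with overlapping groups and an interval of -0.45 to 0.29. The box H/ACA proteins, which direct pseudouridine formation, had overlapping groups: GAR1 differed by -0.22, NOP10 by -0.16 and NHP2 by -0.04. The group's median was -0.19 over all arrays, -0.06 without fb-PMT array 1 and -0.13 without control array 1.

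The small subunit assembly factors held the 2 members with the lowest differences. Of 17 measured, 15 were lower, 13 had both fb-PMT arrays below both control arrays (22.3% of all transcript clusters did), and 5 had an unadjusted p under 0.05 (PNO1, RIOK1, UTP15, BYSL and TSR1; 5.49% of all transcript clusters were lower at that level), with a median of -0.28. The 13 include RRP12 (difference -0.24), which lay below the negative controls on every array. PNO1 is an RNA-binding factor of late small subunit precursors, where it sits at the end of the future small subunit RNA until the nuclease NOB1 cuts it. It had 8.97 and 9.37 on the fb-PMT arrays, against 9.95 and 9.89 on the control arrays. The level was 1.68-fold lower (difference -0.75, SE 0.19, interval -1.21 to -0.29, adjusted p = 0.306), and leaving out 1 array at a time gave -0.95 to -0.55.

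RIOK1 encodes an atypical kinase that acts in the last cytoplasmic steps. Its values were 9.26 and 8.93 with fb-PMT, against 9.84 and 9.66 in the control (1.58-fold lower, difference -0.66, SE 0.18, adjusted p = 0.343). RIOK2, the related kinase of an earlier cytoplasmic step, differed by -0.13, and NOB1 by -0.12, both with groups that did not overlap. The interval for NOB1, from -0.48 to 0.25, did not reach the estimate for PNO1. The difference between these genes was not tested.

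Other factors of late small subunit precursors lay between. BYSL, or bystin, had 10.06 and 9.87 with fb-PMT, against 10.38 and 10.43 in the control (1.36-fold lower, adjusted p = 0.403). TSR1, a GTPase-like factor that masks the subunit until it is mature, had 10.05 and 10.21 with fb-PMT, against 10.50 and 10.59 in the control (1.33-fold lower, adjusted p = 0.425). LTV1, whose release marks a step of head maturation, differed by -0.38. In all 3 genes both fb-PMT arrays were below both control arrays.

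Early factors of the small subunit processome, the large particle that forms on the nascent precursor, were mixed. UTP15, a member of the subcomplex that also promotes transcription of ribosomal genes, had 9.01 and 9.26 with fb-PMT, against 9.66 and 9.57 in the control (1.39-fold lower, adjusted p = 0.393). HEATR1 of the same subcomplex differed by -0.28 without overlap. UTP4 (0.03) and WDR75 (-0.03), also of that subcomplex, had overlapping groups. DDX10, a helicase, and NOP14 differed by -0.35 and -0.34, both without overlap. NOC4L, a partner of NOP14, had 10.07 and 10.36 with fb-PMT, against 10.07 and 10.26 in the control (difference 0.05). UTP18 (-0.11) and UTP20 (-0.09) were close to the control.

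Of the 14 measured large subunit assembly factors, 11 were lower, 8 without overlap of the groups (against 22.3% of all transcript clusters), and 2 had an unadjusted p under 0.05 (WDR74 and RRS1, against 5.49%). The median was -0.26. WDR74 takes part in the nucleolar exit of large subunit precursors together with the ATPase NVL. It had 10.90 and 11.05 with fb-PMT, against 11.51 and 11.73 in the control, a 1.56-fold lower level (difference -0.64, SE 0.16, adjusted p = 0.31, and 0.0295 with the intensity trend). RRS1 helps to bring a further small ribosomal RNA with its proteins into the subunit. It had 9.31 and 9.43 with fb-PMT, against 9.88 and 9.84 in the control (1.41-fold lower, adjusted p = 0.368).

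MRTO4, which holds the place of the ribosomal stalk on large subunit precursors, had 8.58 and 8.93 with fb-PMT, against 9.49 and 8.92 in the control. Its groups overlapped, and the difference of -0.44 was -0.16 without control array 1. NOP16 (-0.34), DDX56 (-0.30), NOC3L (-0.30), NIP7 (-0.26), RRP1 (-0.25) and WDR12 (-0.18) had both fb-PMT arrays below both control arrays. WDR12 works in a complex with PES1, whose difference was -0.02 with overlapping groups. GNL2, a GTPase of nuclear export (-0.03), NOC2L (0.02) and NOP2, a methyltransferase of the large subunit RNA (0.03), also overlapped. RRP8, a methyltransferase of the large subunit RNA, also known for silencing of ribosomal genes, had 8.14 and 8.66 with fb-PMT, against 7.95 and 8.27 in the control (difference 0.29, interval -0.29 to 0.86).

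**Figure D4:**
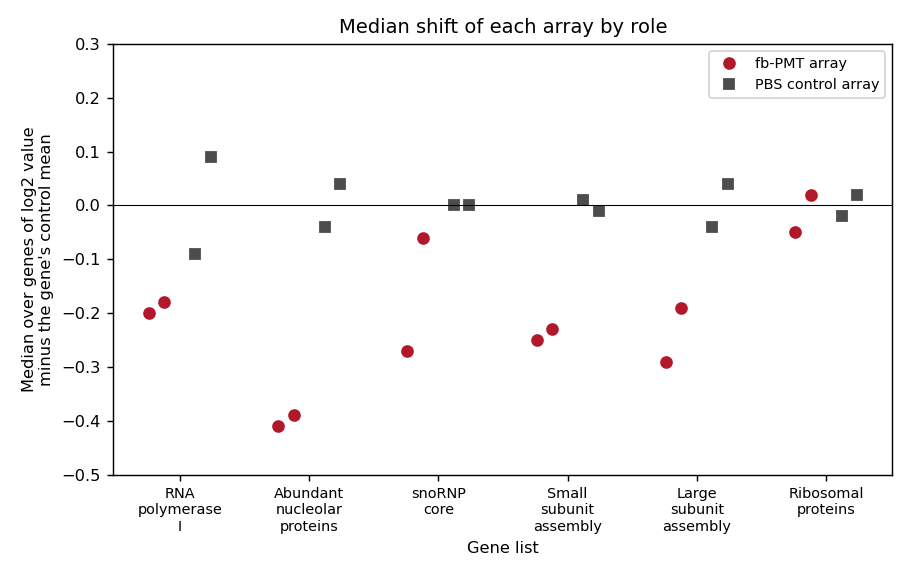
Median over the genes of a role of the log2 value minus the gene's control mean (vertical axis), for each fb-PMT array (circles) and each PBS control array (squares), by role (horizontal axis). In the 5 member roles the fb-PMT arrays lie between -0.41 and -0.06, and for ribosomal proteins at -0.05 and 0.02; the control squares mirror each other by construction.

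Genes of the pathway outside the member list were read from 8 further lists, also chosen with earlier results of these data known. Of these lists, 7 had measured genes (187 of 242 listed genes). The snoRNA host gene list had none under its symbols. No gene of these lists passed limma's adjusted threshold, and at an unadjusted p under 0.05 counts of lower genes were 1 of 40 in the small subunit list, 4 of 41 in the large subunit list, 1 of 14 in the exosome list, 1 of 20 in the RNA polymerase III list and 0 in the others, against 5.49% of all transcript clusters. Among other assembly factors, 36 of 40 for the small subunit and 33 of 41 for the large subunit were lower, with a median of -0.16 in each list. Together that is 69 of 81 (85.2%), against 52.7% of all transcript clusters and 48.1% of those above the negative controls in a group. The 69 include NOP9, DHX37, DDX31 and DDX51, which lay below the negative controls on every array.

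SURF6, a nucleolar protein of large subunit assembly, had the lowest difference outside the member list. It had 7.79 and 7.63 with fb-PMT, against 8.55 and 8.66 in the control (1.86-fold lower, difference -0.89, SE 0.15, adjusted p = 0.186, and 0.0311 with the intensity trend). WDR18 had the highest difference of that list, 0.30. In the small subunit list AATF, a nucleolar factor of early processing, had the lowest difference (-0.42) and the kinase RIOK3 the highest (0.28).

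The remaining factors of RNA polymerase I had a median of -0.15 with 6 of 11 lower, from POLR1F, a stalk subunit, at -0.36 to BAZ2A, which silences ribosomal genes, at 0.16. TAF1A and TAF1C, both counted as higher, lay below the negative controls on every array. The exosome, a nuclease that trims precursor ends, and its partners had a median of -0.15 with 12 of 14 lower. There ISG20L2, an exonuclease, was at -0.49 and XRN2, an exonuclease that acts from the other end, at 0.32.

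RNA polymerase III, which makes the smallest ribosomal RNA and transfer RNAs, had a median of -0.07 with 13 of 20 lower. Its interchangeable subunits POLR3G and POLR3GL stood at the opposite ends of that list. POLR3G, the form known from stem and tumour cells, had 9.21 and 9.26 with fb-PMT, against 9.84 and 9.76 in the control (1.48-fold lower, difference -0.56, adjusted p = 0.32). POLR3GL, the form known from differentiated cells, had 7.45 and 7.57 with fb-PMT, against 7.22 and 7.27 in the control (difference 0.27, adjusted p = 0.56), with 1 control array under the negative controls. Neither gene's groups overlapped. In this list 4 of 20 genes were lower and 4 higher without overlap, against 22.3% and 20.2% of all transcript clusters. POLR3F, counted among the 13 lower, lay below the negative controls on every array.

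Structural proteins of the cytosolic ribosome lay near the control. Of 79 listed genes, 46 were measured, with log2 values from 13.20 to 17.32, above those of most members. Without overlap, 5 were lower and 2 higher (against 22.3% and 20.2% of all transcript clusters). Their median difference was -0.03, with 31 lower and a range from RPS19 at -0.19 to RPS14 at 0.20. That range is narrower than in any of the 5 member roles other than the snoRNP core, and the fb-PMT arrays' medians for this list were -0.05 and 0.02. Many ribosomal protein genes have processed pseudogenes that could share probes. The difference between this list and the members was not tested.

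The list of regulators of ribosomal gene transcription had a median of 0.08 over 15 genes, 7 of them lower. Of the 15, 5 (SIRT7, PHF8, RPTOR, MXD1 and MYCN) lay below the negative controls on all 4 arrays. The median is the value of PHF8, one of these 5, so its sign carries little weight. KDM2A, a histone demethylase that acts at ribosomal genes, was at -0.37 and MXI1, an antagonist of MYC, at 0.31, both without overlap. In this list 4 of 15 genes were lower and 4 higher without overlap, against 22.3% and 20.2% of all transcript clusters. The 4 higher include PHF8 and MYCN. MYC, named after its values were seen, had 12.10 and 12.13 with fb-PMT, against 12.45 and 12.44 in the control (1.26-fold lower, difference -0.33, SE 0.14, adjusted p = 0.48). Its groups did not overlap, and leaving out 1 array at a time gave -0.34 to -0.31. Elsewhere in the list MNT was at -0.25, EIF4EBP1 at -0.18, MGA at -0.11 and MAX at -0.04. RPS6KB1 was at 0.16 and MTOR at 0.14. Of these, MNT and EIF4EBP1 were lower and RPS6KB1 higher without overlap, and MNT had 1 fb-PMT array under the negative controls.

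**Figure D5:**
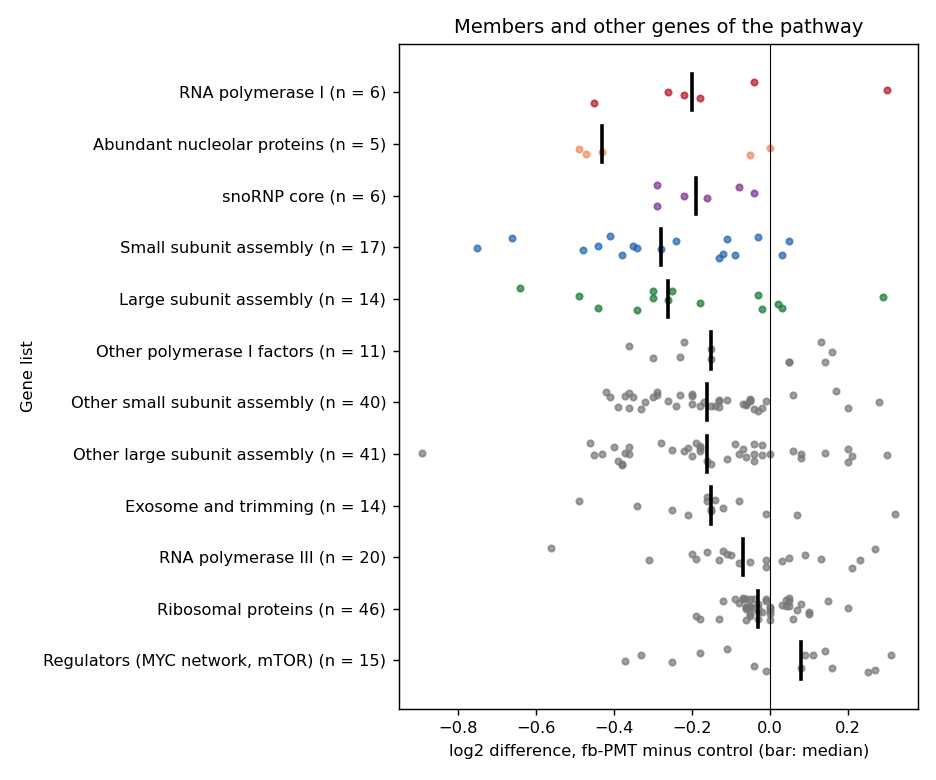
log2 difference, fb-PMT minus control (horizontal axis), of each measured gene (points, spread vertically at random within a row) and the median (bar) for the 5 member roles in colour and 7 lists of other pathway genes in grey. Medians run from -0.43 for abundant nucleolar proteins to -0.03 for ribosomal proteins and 0.08 for regulators. Of the 15 regulators, 5 lay below the negative controls on all 4 arrays, among them PHF8, whose value is the median.

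Across the 48 genes, which share the same 4 arrays, the difference and the mean log2 value had a Pearson r of 0.11. The standard error of a member's difference had a median of 0.158. The 95% interval of the difference excluded 0 for 11 members, the same 11 as at limma's unadjusted p under 0.05 (22.9%). At that level 5.49% of all transcript clusters were lower and 5.7% higher.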

How the data were processed

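Per the submitters' processing notes, the authors used RMA and Transcriptome Analysis Console, version 4.0.1.36, and the deposited log2 values are 1 per probe set and array. Which RMA variant and which genome build they used is not given in the sources used here. Scanner files were not used here, and normalization between arrays removes a shift shared by most genes. Of 24351 probe sets, 2903 control probe sets were left out. Symbols came from the platform annotation (17709 transcript clusters with 1 symbol, 3739 with none), and all 17709 matched RefSeq.

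The test was limma's (version 3.58.1, R 4.3.3) on all 21448 transcript clusters (lmFit, eBayes, no covariate, fb-PMT minus control, two-sided, 2 residual and 3.72 prior degrees of freedom), with Benjamini-Hochberg adjustment over all of them and a threshold of 0.05. The fit was tested on simulated data. Negative controls were 612 probe sets. The number of arrays limits precision (median SE 0.175).

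The members and lists were chosen with earlier results of these data known. Values on every array are given for the 12 members with the largest differences, the top 2 of each role, the top 3 rises and NCL, NPM1, FBL, POLR1A, POLR1B, UBTF, RRN3 and TCOF1 (DKC1 was also on that list but had no transcript cluster). Each other list is given by its largest rise and fall. In the regulator list MYC, MNT, EIF4EBP1, MGA, MAX, RPS6KB1 and MTOR were named outside this rule, with their values known. Remaining members appear with their difference and in some cases its interval or p, and the genes with an unadjusted p under 0.05 or a call under another setting were named after their values were seen. Promoters came from RefSeq (GRCh38.p14). Alternatives changed the variance model, filters, normalization, array weights, the replicate block, the arrays included and the threshold.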

Additional observations from a re-analysis of the deposited data

How the results depend on the processing

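Transcript clusters past the threshold numbered 0 lower and 21 higher. They became 110 lower and 293 higher with an intensity trend, 108 and 286 with the trend and robust variances, 83 and 235 with the filter on negative controls, 6 and 61 without the lowest 30%, 2 and 42 with only named clusters, 2 and 43 with the mean per symbol, and 8 and 65 at an adjusted p under 0.1. Leaving out 1 array gave 0 lower and 1 to 9 higher. Deviations from the group mean correlated little between same-numbered arrays (0.04, equal for both numbers by construction). This value cannot show whether those arrays were handled together. With the replicate block 1 cluster was higher and 0 members passed.

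Members past the threshold numbered 0, and 2 were lower with the trend, with or without robust variances (NCL and WDR74). The other settings gave 0. Between 39 and 45 members were lower under all settings (44 with renewed quantile normalization, 39 of the 46 left by the filter on negative controls), and the median was -0.25 to -0.19 when 1 array was left out. Among other pathway genes, for which the settings were chosen after seeing the data, 1 (SURF6) was lower with the trend, with or without robust variances, and 1 (also SURF6) with the filter on negative controls. Of the 22 members described in full, leaving out 1 array turned the sign of TCOF1 (-0.54 to 0.09), NPM1 (-0.22 to 0.12) and NOC4L (-0.10 to 0.20). It also turned that of 8 others, PES1 (-0.28 to 0.25), NOP2 (-0.18 to 0.25), UTP4 (-0.10 to 0.16), DDX21 (-0.11 to 0.12), WDR75, NHP2, GNL2 and NOC2L. The causes were not tested.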
